A study of Mus musculus with 6 samples.

Results

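Accessible chromatin was examined at 8 genes of the germ cell programme, Prdm1, Dppa3, Nanos3, Dnd1, Ddx4, Dazl, Sycp3 and Mael, chosen by name, in ATAC-seq peak lists of differentiating mouse epiblast stem cells. A peak belonged to one of these genes where that gene was the nearest protein-coding gene within 100 kb of its summit. By this rule 60 of 205844 peaks of the list named FM and 56 of 139164 peaks of the list named KO were members, and together they formed 76 of 239675 regions, a region being a stretch covered by overlapping peaks of either list.

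The study compared Mixl1-induced and Mixl1 knockout epiblast stem cells, with 3 libraries each. Mixl1 encodes a paired-type homeodomain protein made in the embryo as gastrulation begins. Cells of both groups were kept on irradiated mouse embryonic fibroblasts with bFGF at 10 ng/mL and Activin A at 20 ng/mL and were then aggregated into embryoid bodies, which were differentiated in serum for 2 days. Per the labels, doxycycline (1 µg/mL) was added to the inducible lines 24 h before collection, and no treatment is recorded for the knockout cells. The labels do not give the promoter of the inducible construct, the state of the cells' own Mixl1 in the inducible lines, how many lines or clones were used, or the altered part of Mixl1 in the knockout. Mixl1 induction, doxycycline and the line of cells cannot be told apart in this comparison. Each group is represented by 1 list of peaks, called FM and KO. No label explains FM, and that list was set against the induced group because the other list is the knockout. No value below has a replicate error and no test between the groups could be made.

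Of 9 marker genes of the epiblast and primitive streak, 8 had a start peak in FM and 9 had one in KO, where 73.9% of all 21887 protein-coding genes had one in FM and 71.2% in KO. These 9 markers include Mixl1, the gene altered between the groups. Nanog had its start peak in the KO list alone (fold 2.87). Of 8 marker genes of fibroblasts, the feeder cell type, 6 had a start peak in each list, and Col3a1 and Postn had none in either. All 6 markers of gonadal support cells, a type the cultures are not labelled to hold, had one in both lists, with a median fold of 2.40 in FM and 2.12 in KO. The part that cells other than epiblast derivatives had in the peaks of the germ cell genes was not tested. In bulk chromatin, more cells with an open site and a more open site per cell cannot be told apart.

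Primordial germ cells, the founders of sperm and eggs, arise in the mouse from epiblast cells that respond to BMP signals. Prdm1 acts first among these genes, Dppa3, Nanos3 and Dnd1 follow in early germ cells, and Ddx4, Dazl, Sycp3 and Mael are switched on later, after the germ cells reach the gonad. In somatic cells many of the later genes are kept silent by DNA methylation of their CpG-rich starts and by a Polycomb complex that contains the DNA-binding proteins MGA, MAX and E2F6.

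The 250 bases upstream of the start are printed for the 5 genes whose listed start lay under a peak in both lists, from RefSeq on GRCm38.p6, the assembly that mm10 names. Each reads 5′ to 3′ on the gene's strand and ends at the base before the start. Capitals mark CACGTG, the E-box read by MAX and its partners, and TCCCGC or its reverse complement GCGGGA, the core of E2F sites.
Ddx4 (chr13:112652311-112652560, minus strand): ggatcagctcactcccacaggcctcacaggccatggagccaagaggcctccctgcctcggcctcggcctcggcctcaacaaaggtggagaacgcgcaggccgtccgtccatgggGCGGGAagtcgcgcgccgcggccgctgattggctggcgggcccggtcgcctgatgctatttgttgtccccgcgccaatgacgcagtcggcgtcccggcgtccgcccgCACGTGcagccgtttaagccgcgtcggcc
Sycp3 (chr10:88459337-88459586, plus strand): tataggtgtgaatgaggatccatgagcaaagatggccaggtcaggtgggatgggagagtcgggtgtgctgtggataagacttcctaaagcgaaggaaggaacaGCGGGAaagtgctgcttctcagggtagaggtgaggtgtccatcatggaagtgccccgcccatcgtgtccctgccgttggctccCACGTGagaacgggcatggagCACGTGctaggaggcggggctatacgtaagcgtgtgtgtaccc
Mael (chr1:166238745-166238994, minus strand): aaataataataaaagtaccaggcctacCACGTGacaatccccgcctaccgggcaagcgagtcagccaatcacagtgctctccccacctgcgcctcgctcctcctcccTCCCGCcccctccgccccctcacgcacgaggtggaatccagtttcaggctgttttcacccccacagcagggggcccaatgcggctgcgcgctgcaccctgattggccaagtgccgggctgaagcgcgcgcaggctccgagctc
Dazl (chr17:50293621-50293870, minus strand): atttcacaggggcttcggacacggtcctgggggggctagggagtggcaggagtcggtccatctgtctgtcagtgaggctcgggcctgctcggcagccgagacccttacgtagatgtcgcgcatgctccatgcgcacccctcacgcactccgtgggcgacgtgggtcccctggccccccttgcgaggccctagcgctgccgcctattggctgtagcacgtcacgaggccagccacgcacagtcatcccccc
Prdm1 (chr10:44458749-44458998, minus strand): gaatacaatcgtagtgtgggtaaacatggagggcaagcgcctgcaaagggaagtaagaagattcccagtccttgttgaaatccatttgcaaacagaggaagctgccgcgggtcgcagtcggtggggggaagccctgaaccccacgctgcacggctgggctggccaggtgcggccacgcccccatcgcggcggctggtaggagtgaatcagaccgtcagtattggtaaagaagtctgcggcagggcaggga

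The sequences of Ddx4, Sycp3 and Mael each held both motifs, and those of Dazl and Prdm1 held neither. Sycp3 had the E-box at 2 places, at −64 to −59 and at −43 to −38 from the start, and GCGGGA at −147 to −142. Ddx4 had the E-box at −29 to −24 and GCGGGA at −136 to −131, and Mael had them at −223 to −218 and, as TCCCGC, at −143 to −138. Over 21263 upstream sequences of protein-coding genes, 6.63% held CACGTG, 21.8% held TCCCGC on either strand, and 1.95% held both. RefSeq sequences matched 6 of the 8 genes, with no entry for Dppa3 and Dnd1. The sequence of Nanos3 held neither motif and had 3 CpG sites, whereas Ddx4 had 31, Dazl 20, Mael 18, Prdm1 15 and Sycp3 12, against a median of 10 over all upstream sequences. The ratio of observed to expected CpG was 1.00 for Ddx4, 0.75 for Mael, 0.71 for Dazl and for Prdm1, 0.639 for Sycp3 and 0.151 for Nanos3, against a median of 0.53. Other motifs searched on both strands were the T-box TCACACCT (0.997% of all upstream sequences), found once in Sycp3, and the GC box GGGCGG (42.6%), found in Nanos3, Ddx4, Sycp3 and Mael. The GC box can share bases with GCGGGA, as it did in Ddx4 and in Mael. The palindromic homeodomain site of the paired class (0.357%), the STRA8 and MEIOSIN motif CNCCTCAG (6.75%), the PRDM1 motif (0.437%) and TATAAA (11.6%) had no match in any of the 6 sequences. These are matches of letters in a short window and carry no information on binding.

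Of the 76 regions, 35 (46.1%, exact binomial interval 34.5 to 57.9) held a peak of each list, 23 held only FM peaks and 18 only KO peaks. Over all 239675 regions the shares were 40.5% shared, 43.6% FM-specific and 16.0% KO-specific. FM peaks made up 56.1% (interval 39.7 to 71.5) of the 41 specific regions of these genes, against 73.2% of all specific regions. Without the regions of Prdm1 this share was 48.1% (interval 28.7 to 68.1), and without those of Dazl it was 61.5% (interval 40.6 to 79.8). With the 50000 peaks of lowest p from each list it was 38.5% (5 FM-specific regions beside 8 specific to KO), where all regions gave 49.7%. The intervals cover the counting of regions only, and neighbouring regions of 1 gene are not independent.

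**Figure D1:**
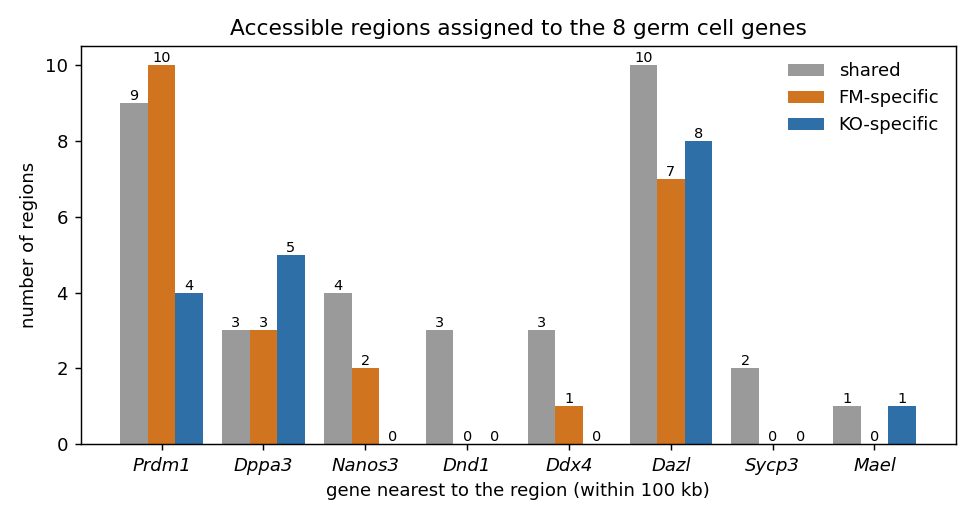
Number of regions (vertical axis) assigned to each of the 8 germ cell genes (horizontal axis), split into regions with a peak in both lists (grey), in FM only (orange) and in KO only (blue). Prdm1 and Dazl hold 23 and 25 of the 76 regions, and Dnd1 and Sycp3 have no region found in 1 list only.

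The genes differed in how much surrounding sequence was theirs. The stretch nearest to Prdm1 spanned 228 kb and that of Dazl 159 kb, whereas Dnd1 had 2.71 kb between close neighbours. Prdm1 had 23 regions, Dazl 25, Dppa3 11, Nanos3 6, Ddx4 4, Dnd1 3, and Sycp3 and Mael 2 each. In the FM list 8 of the 60 peaks, and in the KO list 11 of the 56, lay within 1 kb of a gene start. Dppa3 and Dnd1 have no listed start, and either gene end was used for them. Outside the genes, the median distance from the gene was 24.7 kb for FM peaks and 22.9 kb for KO peaks. The member farthest from its gene was a KO-specific peak 87.1 kb from Dazl (fold 1.94, −log10 q 4.03). Just beyond the limit of the rule, another KO-specific peak lay 100.4 kb from Dazl (fold 2.18, −log10 q 6.24).

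Fold enrichment is the authors' own value for each peak, the fragments over the summit divided by the local background, and −log10 q is its significance within the list. The unit that the peak caller counted was not checked, and fragments here stands for fragments or single reads. Peaks shared by the lists had a median fold of 2.26 in FM and 2.24 in KO. Specific peaks had medians of 1.93 in FM and 2.05 in KO. The specific FM peaks had −log10 q of 1.58 to 9.03 and the specific KO peaks of 2.95 to 15.8. None of the 60 FM peaks (0%, interval 0 to 5.96) and 3 of the 56 KO peaks (5.36%, interval 1.12 to 14.9) were specific with −log10 q of at least 10. Over the whole lists 2.99% of FM peaks and 2.59% of KO peaks were. All 3 lay near Dazl.

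**Figure D2:**
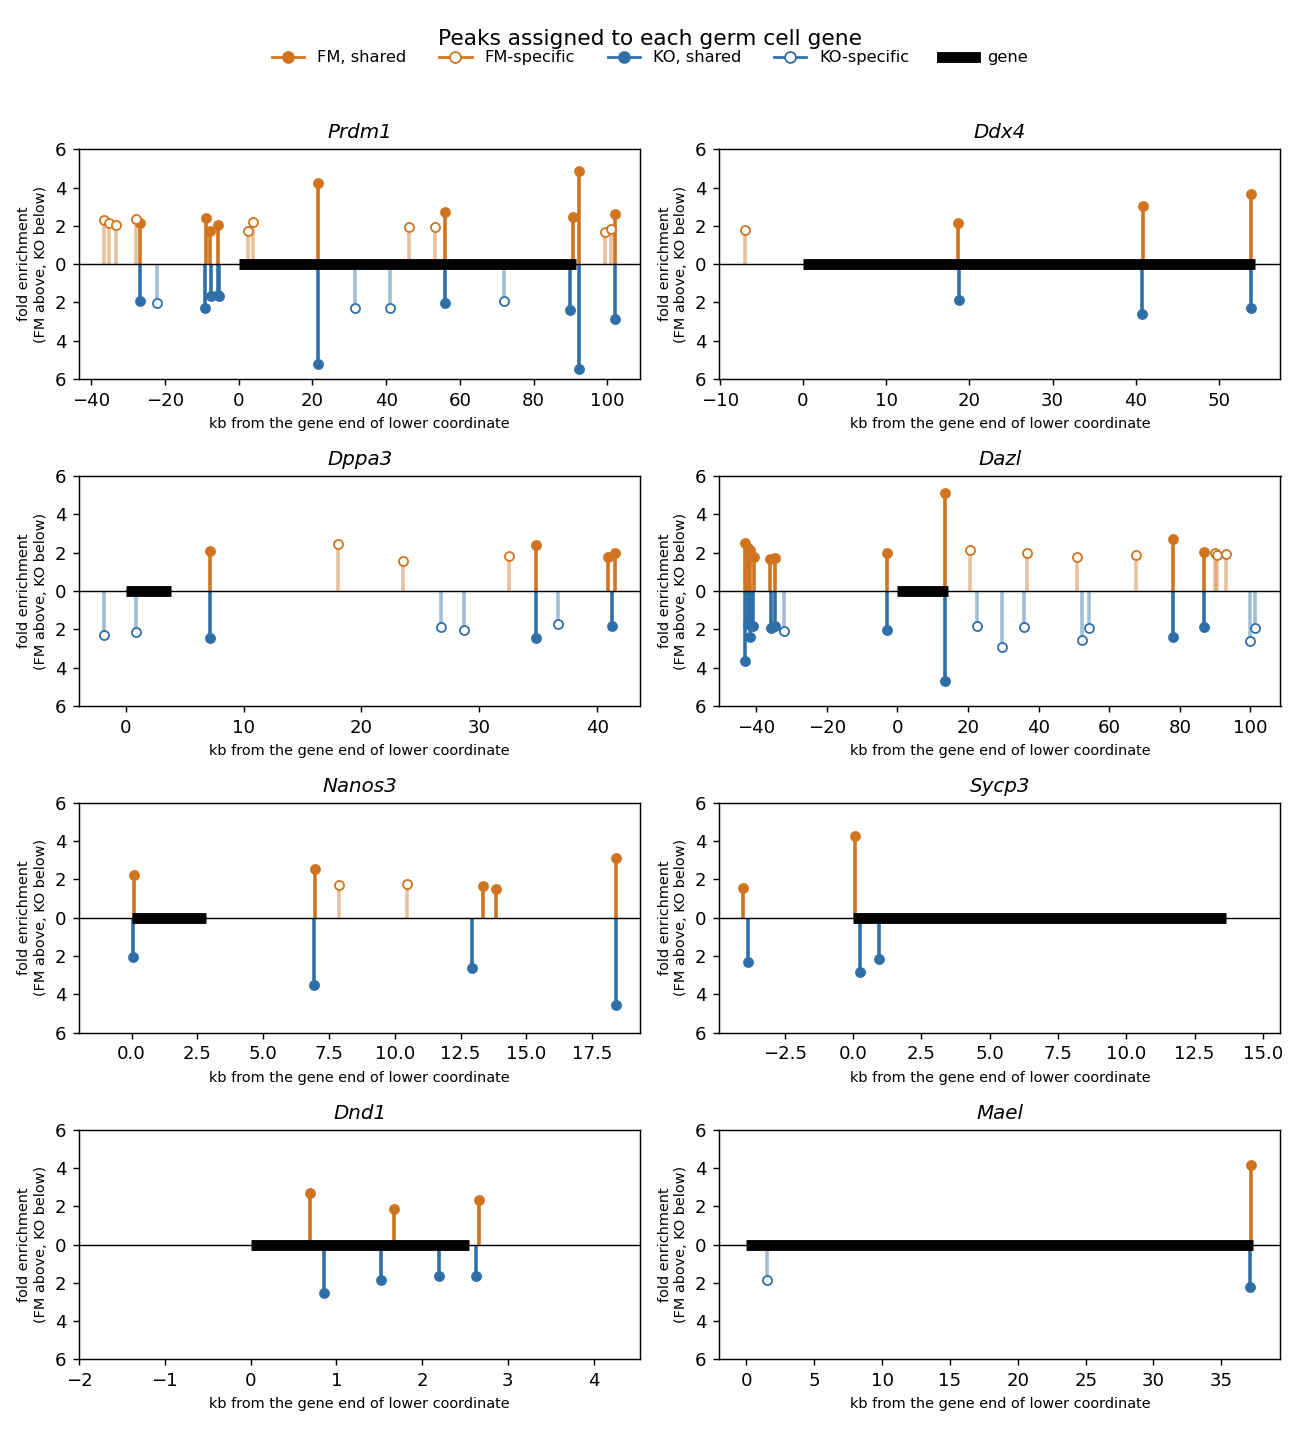
Fold enrichment of every assigned peak at its summit, with FM peaks above the axis and KO peaks below, against the distance in kb from the gene end of lower coordinate; the black bar is the gene. Filled points are peaks that overlap a peak of the other list and open points are specific to 1 list. The tallest peaks at Prdm1 and Dazl occur in both lists, and open points stay below a fold of 3.

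Prdm1 (gene ID 12142, chr10:44437174-44528558, minus strand) encodes BLIMP1, a zinc finger repressor that primordial germ cells need to form. It had 9 shared, 10 FM-specific and 4 KO-specific regions. Its listed start lay under a peak of fold 4.22 in FM (chr10:44458478-44459143, −log10 q 43.4) and of fold 5.21 in KO (chr10:44458473-44459121, −log10 q 79.4). A second strong shared peak lay just beyond the gene end of higher coordinate, with a fold of 4.85 in FM (chr10:44529140-44529977, −log10 q 51.3) and 5.46 in KO (chr10:44529140-44529917, −log10 q 75.8). On the minus strand this is the upstream end of the annotated gene. The remaining peaks of Prdm1 were weaker, with folds of at most 2.74 in FM and 2.88 in KO, and 10 of them were FM-specific, of which 4 lay 27.8 to 36.3 kb past the downstream end.

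Dppa3 (gene ID 73708, chr6:122626424-122630271) encodes STELLA, a chromatin protein of early germ cells and of the egg that protects methylated DNA. It lies between Gdf3 and Nanog and had 3 shared, 3 FM-specific and 5 KO-specific regions. The gene itself held a peak in KO alone with its edge 699 bp from the end of lower coordinate (chr6:122627123-122627378, fold 2.14, −log10 q 5.90). Another KO-specific peak lay 1.82 kb outside the gene (chr6:122624448-122624877, fold 2.28, −log10 q 7.30). The FM list had no peak within 1 kb of either gene end. Over all genes, 4.04% had a start peak in FM only and 1.36% in KO only. The region of Dppa3 with the highest −log10 q was shared and lay 30.9 kb away, with folds of 2.38 in FM and 2.44 in KO and −log10 q of 11.1 in FM and 13.4 in KO.

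Nanos3 (gene ID 244551, chr8:84173733-84176552, minus strand) encodes an RNA-binding protein that keeps migrating germ cells alive. It had no peak within 1 kb of its start in either list. A shared peak covered its downstream end, with folds of 2.22 in FM and 2.07 in KO. The strongest regions lay 4.13 to 15.6 kb upstream, and the strongest of them had a fold of 3.14 in FM (chr8:84191585-84193001, −log10 q 36.5) and 4.54 in KO (chr8:84191570-84192918, −log10 q 95.1). The next nearest gene, Zswim4, was 18.8 kb away. The local background here was high, with 57.6 fragments in FM and 64.9 in KO, against medians of 28.7 and 29.0 over the member peaks of FM and KO. The 2 FM-specific regions of Nanos3 had folds of 1.70 and 1.76.

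Dnd1 (gene ID 213236, chromosome 18, 36763671 to 36766214) encodes an RNA-binding partner of the NANOS proteins, and its loss in the Ter mouse depletes germ cells. All 3 of its regions were shared. The strongest had a fold of 2.71 in FM and 2.55 in KO, and the one over the end of higher coordinate had 2.31 in FM and 1.63 as the higher of 2 peaks in KO. Wdr55 or Hars lay 0.197 to 1.34 kb from the summits of these peaks, so their assignment to Dnd1 is uncertain. On the whole of chromosome 18, 56.4% of specific regions were FM-specific (interval 54.9 to 57.8).

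Ddx4 (gene ID 13206, chr13:112598333-112652633, minus strand) encodes the mouse VASA homologue, an RNA helicase of germ granules. It had 3 shared regions, 1 FM-specific region and no KO-specific region. The peak over its start had a fold of 3.65 in FM (chr13:112651859-112652623, −log10 q 26.6) and 2.28 in KO (chr13:112652046-112652584, −log10 q 7.30). A shared peak inside the gene had folds of 3.05 in FM and 2.61 in KO, and another had 2.13 in FM and 1.88 in KO. In the KO list the internal peak was thus the stronger of the pair formed with the start peak, and in the FM list the start peak was.

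Dazl (gene ID 13164, chr17:50279393-50293620, minus strand) encodes an RNA-binding protein that germ cells need to become competent for sexual differentiation. It had 10 shared, 7 FM-specific and 8 KO-specific regions. The peak over its start had a fold of 5.09 in FM (chr17:50292612-50294063, −log10 q 63.1) and 4.69 in KO (chr17:50292634-50293895, −log10 q 46.3), the highest fold among the member peaks of the FM list. The strong KO-specific peaks lay 15.4 kb (chr17:50308836-50309173, fold 2.95, −log10 q 15.8), 37.9 kb (chr17:50331422-50331725, fold 2.56, −log10 q 11.0) and 85.6 kb (chr17:50378939-50379337, fold 2.61, −log10 q 11.2) upstream. The 7 FM-specific peaks, all upstream as well, had −log10 q of at most 5.81. A cluster of shared peaks 40.7 to 43.3 kb downstream lay almost as near to Rftn1 and over or beside the non-coding gene Gm41597. Its strongest peak had a fold of 2.50 in FM and 3.66 in KO.

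Sycp3 (gene ID 20962, chr10:88459587-88473236, plus strand) encodes a protein of the axial elements of meiotic chromosomes, and Mael (gene ID 98558, chr1:166201385-166238744, minus strand) encodes MAELSTROM, which acts in transposon silencing in germ cells. The start of Sycp3 lay under 1 FM peak of fold 4.26 (chr10:88459379-88460744, −log10 q 42.7), where the KO list had 2 peaks, of fold 2.81 (chr10:88459412-88460272, −log10 q 13.9) and 2.18. A weaker shared region about 4 kb upstream had folds of 1.56 in FM and 2.33 in KO. The start of Mael had a fold of 4.16 in FM (chr1:166238338-166238952, −log10 q 35.6) and 2.21 in KO (chr1:166238305-166238890, −log10 q 6.59). The other region of Mael was KO-specific and weak, with a fold of 1.84.

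The peak caller's fold and p-value together give the number of fragments over each summit, which was whole, within 0.02, for all 60 FM and all 56 KO member peaks. At the start of Mael the count was 122 (95% Poisson interval 101 to 146) in FM and 65 (interval 50.2 to 82.8) in KO, over backgrounds of 28.55 in FM and 28.85 in KO. At the start of Sycp3 it was 143 (121 to 168) in FM and 83 (66.1 to 103) in KO, and at that of Ddx4 107 (87.7 to 129) in FM and 67 (51.9 to 85.1) in KO. For these 3 genes the FM interval lay above the KO interval. At Dazl the counts of 175 (150 to 203) in FM and 139 (117 to 164) in KO had intervals that overlapped. At Prdm1 the order was the other way, with 147 (124 to 173) in FM and 215 (187 to 246) in KO. At Dnd1 the strongest peak had 185 (159 to 214) in FM and 208 (181 to 238) in KO. Among 14901 genes with a start peak of whole count in both lists, the FM interval lay above the KO interval in 3.46% and the KO interval above the FM interval in 37.5%. The intervals cover counting error in pooled libraries only and take the counted units as independent. The counts can be compared only as far as both lists were made from like depths with the same settings.

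**Figure D3:**
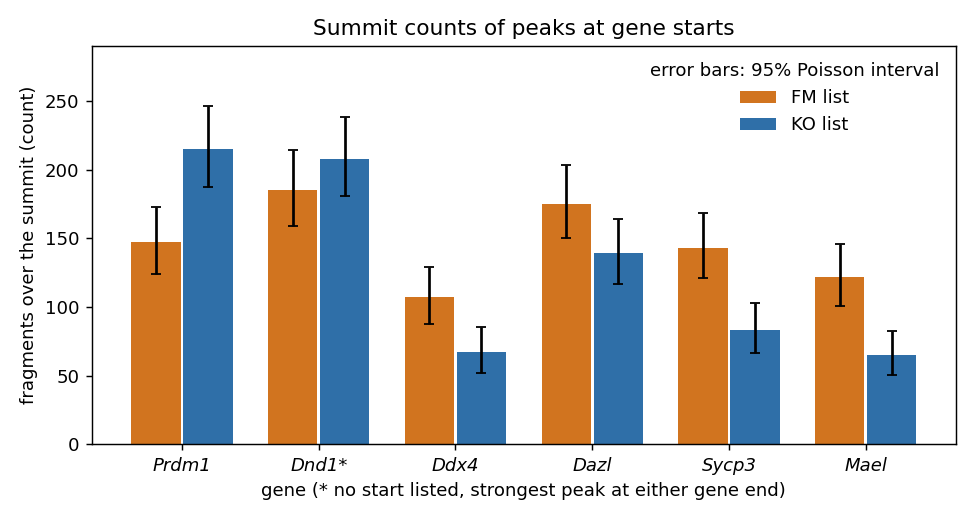
Number of fragments over the summit of the strongest peak at the start of each gene (vertical axis), in the FM list (orange, left) and the KO list (blue, right), with 95% Poisson intervals as error bars. The FM bar is clear of the KO bar at Ddx4, Sycp3 and Mael, and the KO bar is clear of the FM bar at Prdm1.

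Since folds of separate lists need not be on one scale, each start peak was also placed by fold among the 15296 genes (69.9% of 21887) that had a start peak in both lists, as the percent of these genes with a lower fold in the same list. This measure was chosen after the values were seen. Mael stood at 60.6% in FM and 10.5% in KO, Sycp3 at 62.7% in FM and 20.7% in KO, Ddx4 at 48.0% in FM and 11.7% in KO, and Dazl at 78.9% in FM and 53.9% in KO. Dnd1, by its gene end, stood at 23.7% in FM and 16.3% in KO, and Prdm1 at 61.8% in FM and 63.3% in KO. The 4 later genes thus stood at least 20 percentage points higher in FM than in KO, and the gap, FM minus KO, was 7.47 points for Dnd1 and −1.49 points for Prdm1. Of all 15296 genes, 6.43% stood at least 20 points higher in FM and 6.53% at least 20 points higher in KO. Among the 7875 genes with a mean position of 20% to 70%, where such gaps are easier to reach, the shares were 10.1% toward FM and 9.74% toward KO. Ranked by −log10 q in place of fold, the gap of Ddx4 was 20.2 points, that of Mael 30.7 and that of Sycp3 30.9. Markers of other cell types also had gaps of this size. Of the 6 fibroblast markers with a start peak in both lists, Col1a2 (78.6% in FM and 42.3% in KO) and Fbn1 (71.6% in FM and 49.6% in KO) stood at least 20 points higher in FM and 0 did so in KO. By smaller gaps, Thy1 (13.1% in FM and 24.9% in KO) and Pdgfrb (4.72% in FM and 12.1% in KO) stood higher in KO, so that 4 of the 6 stood higher in FM and 2 in KO. Of the 8 such markers of the epiblast and primitive streak, Mixl1 by its gene end (62.7% in FM and 23.4% in KO) and Eomes (66.4% in FM and 43.4% in KO) had a gap toward FM, and T (18.3% in FM and 44.3% in KO) had one toward KO. Mixl1 is itself the gene altered between the groups, so its gap cannot be read as that of a cell type marker. None of the 6 gonadal markers had a gap of this size, and by smaller gaps 5 of them stood higher in FM and 1 in KO. The part of these cell types in the gaps of the germ cell genes was not tested.

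Other genes of the germ cell programme were taken from 4 lists of 57 genes in all. Of these, 51 had a start peak in FM and 48 in KO, where 73.9% of all genes had one in FM and 71.2% in KO. Of the 47 with a start peak in both, 34 stood higher in FM and 13 higher in KO (50.2% of all such genes stood higher in FM). A gap of at least 20 points toward FM was found in 13 of the 47 genes and one toward KO in 2. The FM count interval lay above the KO interval in 6 of them and the KO interval above the FM interval in 6, where over all genes the shares were 3.46% toward FM and 37.5% toward KO. Of the 13 genes with a gap toward FM, 4 lie on chromosome 15 (Dmc1, Syce3, Smc1b and Mov10l1) and Taf7l lies on X. Without chromosomes 12, 15, 18, X and Y there were 8 such genes. In that setting 27 genes stood higher in FM and 13 higher in KO, in place of 34 in FM and 13 in KO. A start peak can also cover the start of a neighbouring gene.

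The 18 further genes of meiosis held 7 of the 13 gaps toward FM. A start peak was found for 17 of them in both lists (against 69.9% of all genes), and 13 of these stood higher in FM. Over all genes with a start peak in both lists, 50.2% stood higher in FM, 6.43% by at least 20 points. Dmc1, the meiotic recombinase, stood at 78.1% in FM and 15.9% in KO (folds 5.04 in FM and 2.53 in KO). Sycp2, the partner of SYCP3 in the chromosome axis, stood at 84.0% in FM and 32.1% in KO (folds 5.44 in FM and 3.45 in KO). The others were Sycp1, Syce3, Smc1b, Hormad1 and Hormad2, named after their values were seen. Spo11, which makes the meiotic double-strand breaks, had a gap toward KO by its gene end, at 17.5% in FM and 54.1% in KO. Among all 57 other germ cell genes, the number of gaps toward KO was 1 in place of 2 with ranks among genes with a listed start only. A KO-specific peak lay 0.643 kb outside Spo11, with a fold of 3.06 (chr2:172976564-172976923, −log10 q 34.2). Inside Spo11 lay an FM-specific peak with a fold of 2.33 (chr2:172979809-172980197, −log10 q 10.5). Prdm9, which places these breaks, had the highest start peak of these genes in both lists, with folds of 6.51 in FM and 8.47 in KO. Stra8, the retinoic acid target that starts meiosis, stood at 17.3% in FM and 27.1% in KO.

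Of the 16 further germ granule and piRNA genes, 12 had a start peak in both lists (against 69.9% of all genes) and 3 in FM only (against 4.04%). Those in FM only were Tdrd1 (fold 1.80), Tdrd6 (fold 1.93) and Piwil2 (fold 1.65), of which Tdrd6 and Piwil2 have no listed start and were judged by either gene end. Of the 12, 10 stood higher in FM, and Mov10l1 (52.2% in FM and 14.5% in KO), Tdrd12 and Stk31 did so by at least 20 points. Over all genes with a start peak in both lists, 50.2% stood higher in FM, 6.43% by at least 20 points. Mov10l1 is the helicase that starts piRNA production. Tdrd7 had the strongest start peak of this list, with folds of 5.49 in FM and 7.02 in KO. Inside Tdrd5, a KO-specific peak had a fold of 3.69 (chr1:156268145-156269237, −log10 q 32.7). Also inside it were another KO-specific peak of fold 2.63 (−log10 q 12.2) and an FM-specific peak of fold 2.54 (chr1:156267649-156267861, −log10 q 10.2).

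Of the 12 further genes of germ cell specification, 8 had a start peak in both lists (against 69.9% of all genes). Of these 8, 5 stood higher in FM, none by 20 points. Ifitm3, a membrane protein gene active in early germ cells, stood at 3.53% in FM and 38.2% in KO. Over all genes with a start peak in both lists, 50.2% stood higher in FM. A gap of at least 20 points was found in 6.43% of them toward FM and in 6.53% toward KO. Tfap2c, a transcription factor that acts beside PRDM1, had a peak at a gene end in FM only (fold 1.65), as its start is not listed. Prdm14, the third of these factors, also judged by its gene ends, had peaks there of fold 2.51 in FM and 1.97 in KO, and an FM-specific peak 57.1 kb away (chr1:13056094-13056560, fold 3.07, −log10 q 17.4). Dppa2, Dppa4 and Nanos2 had no start peak in either list. Of the 11 factors of later germ cells, 10 had a start peak in both lists (against 69.9% of all genes). Of these 10, 6 stood higher in FM and 4 higher in KO, where 50.2% of all such genes stood higher in FM. Taf7l (38.9% in FM and 0.628% in KO), Sohlh2 and Figla stood at least 20 points higher in FM (against 6.43% of all such genes), and 0 did so in KO (against 6.53%). Sohlh1 had a start peak in KO only (fold 1.50), as did 1.36% of all genes. The KO peaks of Taf7l (−log10 q 1.38) and Sohlh1 (−log10 q 1.86) lay close to the lowest entry of the list, 1.3.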

How the data were processed

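Per the labels, ATAC-seq libraries were made from 50000 cells each with Tn5 transposase and 11 PCR cycles. The submitters' processing notes name bcl2fastq, Bowtie2, SAMtools, MACS2 and the build mm10. Not given in the sources used here: how 3 libraries became 1 list, Tn5 read shifting, duplicate filters, read depth and whether the triplicates were separate cultures. The deposited values per peak are a fold enrichment (a ratio to local background) and −log10 values of p and q (a −log10 p-value and a −log10 q-value), whose lowest entry corresponds to q 0.05. The deposited summit offset, a position in bp (not a score), placed each summit. Rows with the same interval were collapsed to the lowest p, and assembled chromosomes were kept. Genes were 21887 protein-coding RefSeq genes of GRCm38.p6, with starts for 17492. Peaks overlapping by 1 bp were shared. A start peak lay within 1 kb of a start, or of either gene end for the other 4395 genes, and the one of lowest p was used. Fragment counts were solved from fold and p, with MACS2's pseudocount of 1. Confidence intervals are exact at 95%.

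The genes and lists were chosen with earlier results of these data known. Named genes are the 8 genes, and in the other lists those with a start peak in 1 list only, with a specific peak of −log10 q of at least 10, or among the 3 highest start peaks; examples of these are printed. Other genes named from the lists, such as those with gaps of 20 points, were chosen after their values were seen. Python 3.11.15, pandas 2.3.3 and scipy 1.17.1 were used, and the overlap and count steps were tested on simulated data. The nearest-gene step was tested on a sample of the deposited peaks against a search over every gene of the chromosome.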

Additional observations from a re-analysis of the deposited data

How the results depend on the processing

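When peaks of −log10 q under 5 were dropped, the regions of the 8 genes fell to 21 shared and 15 FM-specific, beside 12 KO-specific (55.6% FM-specific of specific ones). Over all regions this share was 72.1% at that cutoff. With 50000 peaks from each list there were 13 shared, 5 FM-specific and 8 KO-specific ones (38.5%, against 49.7% over all regions). Under that setting 6 of the 8 genes had a start peak in FM and 4 in KO, in place of 6 in FM and 7 in KO. Within 20 kb of genes there were 12 FM-specific and 8 KO-specific regions, and counting every peak within 10 kb gave 13 FM-specific and 8 KO-specific ones. Specific peaks numbered 9 in FM and 9 in KO at −log10 q of at least 5, and 0 in KO at 20. Shares over all genes, regions or peaks were not taken for these start peak counts, distances and cutoffs of specific peaks, so these counts have no background beside them. Requiring 50% overlap or assigning by peak edges left the counts of regions within 1.5 times. The positions of start peaks had alternatives chosen after seeing the data. Of the 8 genes, 4 stood at least 20 points higher in FM under each of the 5 alternatives tried, but ranked by −log10 q the gaps of Ddx4, Mael and Sycp3 were 20.2, 30.7 and 30.9 points, in place of 36.3, 50.1 and 42.1 points. Among the other germ cell genes this number was 7 by −log10 q and 8 without chromosomes 12, 15, 18, X and Y, and the number toward KO was 1 with a 2 kb window and 1 among genes with a listed start. The causes were not tested. No paired analysis was possible because the deposited lists carry no replicates, and no library could be left out.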

Other observations

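Genes known to keep germ line genes silent in somatic cells, a list of 12, all had start peaks in both lists (against 69.9% of all genes). Of these, 5 stood higher in FM and 7 higher in KO by their position among genes with a start peak in both lists, none by 20 points toward FM and 2 by 20 points toward KO. Over all such genes 50.2% stood higher in FM, 6.43% by 20 points, and 6.53% stood 20 points higher in KO. Dnmt1, the maintenance DNA methyltransferase, stood at 72.5% in FM and 97.4% in KO, and Ehmt1, a histone H3 lysine methyltransferase, at 66.3% in FM and 90.8% in KO. Max, with folds of 6.64 in FM and 8.08 in KO, and its partner Mga, with 6.31 in FM and 7.59 in KO, stood at about the same high position in both lists. Of the 10 genes with whole summit counts in both lists, the FM interval lay above the KO interval in 0 and the KO interval above the FM interval in 7, where over all genes the shares were 3.46% toward FM and 37.5% toward KO.

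The pair of motifs upstream of Ddx4, Sycp3 and Mael was also counted over other genes. Among 385 further genes that held both CACGTG and TCCCGC upstream and had a start peak in both lists, 18 (4.68%) stood at least 20 points higher in FM and 27 (7.01%) at least 20 points higher in KO. Among 7357 genes with neither motif 6.67% stood that much higher in FM and 6.80% in KO. In the lists of germ cell genes, Hormad1, Syce2 and Tex12 also held both motifs, and each stood higher in FM. Hormad1 stood at 30.0% in FM and 8.61% in KO, Syce2 at 40.2% in FM and 25.4% in KO, and Tex12 at 23.4% in FM and 9.18% in KO. The part of these motifs in the positions of the start peaks was not tested.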
